A study of Sus scrofa with 12 samples.

Results

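The genes described here encode the cytosolic ribosomal proteins of the pig (Sus scrofa), measured in embryos at the blastocyst stage. The rule that defines them uses the symbol and no measured value: every gene whose symbol is RPL or RPS followed by its number, with RPSA and the stalk proteins RPLP1 and RPLP2. On the first of 2 array designs they were 51 of 11914 named genes, read by 88 of 43794 probes. On the second design they were 37 of 4530 named genes, read by 196 of 45220 probes. Together the designs measured 57 of these genes, of which 31 were on both, 20 on the first only and 6 on the second only.

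Hatched blastocysts, collected 5.5 days after in vivo insemination, were compared with early blastocysts, collected 5 days after in vivo insemination. Each array carried RNA of both stages, 1 in Cy5 and the other in Cy3, so each array gave a ratio of the stages and no level of either stage. Each design was hybridised on 6 arrays, 3 with hatched blastocysts in Cy5 and 3 with early blastocysts in Cy5. Total RNA was extracted with a kit for very small samples and amplified linearly into antisense RNA before dye labelling. The sources used here do not give breed, sex or the number of embryos per RNA sample. The labels also do not say which arrays share an RNA sample, or whether the 2 designs used the same RNA, so the p-values measure the spread between arrays, which may be partly technical.

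A cytosolic ribosome is a small and a large subunit, each built from ribosomal RNA and many proteins. The small subunit reads the codons of the messenger RNA, the large subunit joins the amino acids, and the acidic stalk of the large subunit recruits the translation factors. Vertebrate messenger RNAs for these proteins begin with a run of pyrimidines at the 5′ end, which places their translation under the TOR kinase, so RNA level and protein output need not move together. Early embryos start with ribosomes stored by the oocyte and turn to ribosomes of their own after the embryonic genome is activated.

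The deposited values are log ratios, taken here as log2. No source used here says which stage was divided by which, so a ratio is given as positive or negative as deposited, and neither stage is called higher. All arrays appear to run the same way. Over all genes, 2 arrays of the same dye orientation correlated with Pearson's r from 0.31 to 0.74 on the first design and from 0.36 to 0.72 on the second, and arrays of opposite orientation from -0.07 to 0.69 (mean 0.24) and from 0.10 to 0.76 (mean 0.43). The ratios are centred on each array, with array medians over all genes from -0.01 to 0.01, so every value is relative to the other genes on the array. In bulk RNA of whole embryos, fewer cells of a type and less RNA per cell cannot be told apart. The stages could not be checked against marker levels, because only ratios were used.

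Residuals from the fitted ratio joined the arrays in pairs of 1 array of each dye orientation, and the pairs are the same on both designs. The first pair joins hatched-in-Cy5 replicate 1 with early-in-Cy5 replicate 2, the second joins hatched-in-Cy5 replicate 2 with early-in-Cy5 replicate 1, and the third joins the arrays numbered 3 of both orientations. This pairing was read from the data and not from the labels. Of all ways to pair the arrays, it has the highest summed residual correlation, so the residual r values that follow are maximised. The fit makes residuals of the same dye orientation cancel for every gene, which favours pairs of opposite orientation. Opposite orientations within a pair are therefore not a result. Residuals within a pair correlated with r of 0.67, 0.73 and 0.36 on the first design and 0.66, 0.75 and 0.56 on the second. In the ratios themselves, r over all genes within these pairs was 0.69, 0.29 and 0.39 on the first design. On the second it was 0.76, 0.50 and 0.64. Some arrays correlated more with an array outside their pair, up to 0.74 on the first design and 0.72 on the second. An array of the second pair correlated with arrays of the other pairs from -0.07 to 0.41 and from 0.10 to 0.47. Arrays outside the second pair correlated with each other from 0.28 to 0.74 and from 0.51 to 0.76. Results are given with and without the second pair. Below, array values are listed by pair in this order, the array with hatched blastocysts in Cy5 first.

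Most ribosomal protein genes lay slightly on the negative side of the ratio on both designs. On the first design 34 of 51 genes had a fitted ratio below 0, against 48.8% of all genes. The median ratio of the members was -0.10 on the log2 scale, with single genes from -0.59 to 0.62, and that of all genes was 0.00. The second design had 26 of 37 members below 0, again against 48.8% of all genes. Their median was -0.07, with a range from -0.65 to 0.70, and that of all genes was 0.00. These medians are small beside the spread of single members. Over single probes in place of genes the second design's median was -0.19. That median counts a gene once per probe, and RPL5, RPL7 and RPS4X had 18, 16 and 14 of the 196 probes. Each design lay on 2 slides, and the members' medians were -0.12 within the slide of 4 arrays and -0.11 within the slide of 2 on the first design, and -0.10 and -0.06 on the second.

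Large and small subunit genes both had medians below 0. The 22 small subunit genes of the first design had a median ratio of -0.12, and its 29 large subunit genes, stalk included, had -0.09. The 17 small subunit genes of the second design had a median of -0.07 and its 20 large subunit genes -0.08. The difference between the subunits was not tested.

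Ribosomal protein genes spread more widely than genes at large in the first pair of arrays. There the SD over members was 0.57 and 0.58 on the first design, where all genes had 0.40 and 0.41. In the same pair of the second design it was 0.68 and 0.62 over members and 0.49 and 0.49 over all genes. In the second pair it was 0.34 and 0.30 over members and 0.31 and 0.28 over all genes on the first design, and 0.37 and 0.31 over members and 0.31 and 0.34 over all genes on the second. In the last pair it was 0.49 and 0.41 over members and 0.42 and 0.35 over all genes on the first design, and 0.38 and 0.37 over members and 0.41 and 0.39 over all genes on the second.

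**Figure D1:**
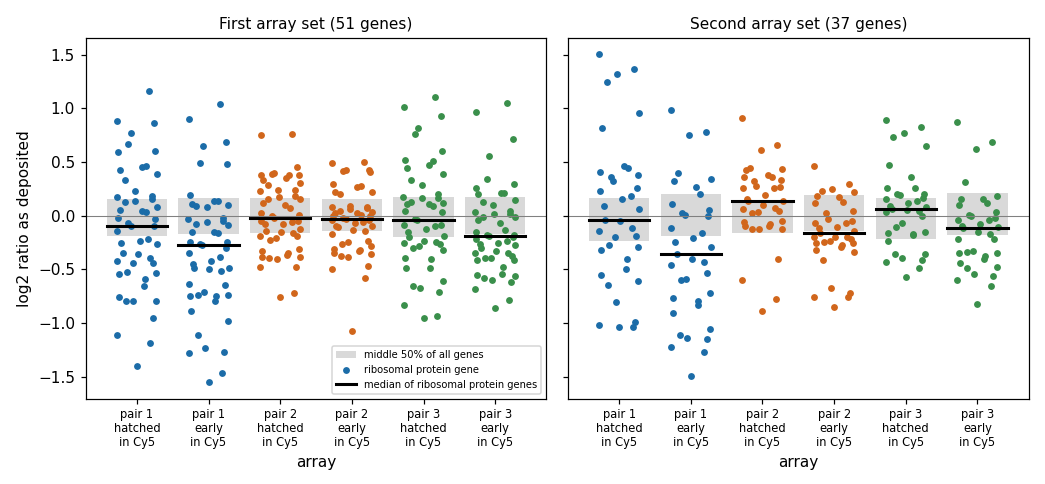
Log2 ratio of every ribosomal protein gene (points) on each array (x axis), by design and array pair, with the members' median (line) and the interquartile range of all genes (grey band). The members' median on the second design lies above 0 on 2 of the 3 hatched-in-Cy5 arrays and below 0 on the 3 early-in-Cy5 arrays, and on both designs the first pair has the widest spread over members.

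On the first design, 5 of the 51 ribosomal protein genes passed an adjusted p of 0.05 in limma, where 4.74% of all genes did. Of these, 4 were negative, where 2.38% of all genes were called negative, and 1 was positive, where 2.37% were. At an unadjusted p under 0.05 there were 18 members (17.1% of all genes), 14 of them negative, where 9.54% of all genes were, and 4 positive, where 7.55% were. On all 6 arrays, 9 members kept one side of 0 (9.24% of all genes), 7 of them negative (5.03% of all genes) and 2 positive (4.21% of all genes).

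The lowest of the called ratios belonged to RPL10A, which forms the mobile L1 stalk beside the exit site for tRNA. Its ratios were -0.39 and -0.63 in the first pair, -0.15 and -0.32 in the second and -0.41 and -0.79 in the third. Every array was below 0, and the early-in-Cy5 array was the lower of each pair. The fitted ratio was -0.45 ± 0.08 (SE, n = 6 arrays, limma adjusted p = 0.0206). When the pairs entered as a random block, RPL10A was the 1 member of 51 called (adjusted p = 0.0315), where 3.79% of all genes were.

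RPL35A is a large subunit protein, and in humans it is one of the genes mutated in Diamond-Blackfan anaemia. Its ratios were -0.65 and -0.38, then -0.48 and -0.02, then -0.40 and -0.40. All 6 arrays were below 0, with early-in-Cy5 replicate 1 close to it. The fit gave -0.39 ± 0.07 (SE, n = 6 arrays, limma adjusted p = 0.0263, and 0.0624 with pairs as a random block).

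The proteins RPS18 and RPS13 both sit in the small subunit, RPS18 in its head and RPS13 at a contact with the large subunit. RPS18 had ratios of -0.43 and -0.48, then -0.35 and -0.11, then -0.67 and -0.22, all below 0. Its fitted ratio was -0.38 ± 0.07 (SE, n = 6 arrays, limma adjusted p = 0.0322, and 0.0791 with pairs as a random block). RPS13 had ratios of -0.54 and -0.52, then -0.39 and -0.24, then -0.28 and -0.15. These too were all below 0, lowest in the first pair. Its fitted ratio was -0.35 ± 0.07 (SE, n = 6 arrays, limma adjusted p = 0.0327, and 0.0536 with pairs as a random block).

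RPL6, a large subunit protein, was the member called positive. Its ratios were 0.60 and 0.10, then 0.35 and 0.03, then 0.51 and 0.02. All 6 arrays were above 0, but the early-in-Cy5 array of each pair was within 0.10 of it. The fit gave 0.27 ± 0.05 for the stage ratio (SE, n = 6 arrays, limma adjusted p = 0.0398) and 0.22 for the dye term. With the pairs as a random block its adjusted p was 0.0956.

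The first design's calls, over the members and over all genes, depended on single arrays. With all arrays, 565 of 11914 genes were called. Limma called 0 of the 51 members without array 1 or 3 of those with hatched blastocysts in Cy5, and without early-in-Cy5 replicate 2, with 13, 12 and 14 at an unadjusted p under 0.05. Of all genes it then called 234, 258 and 197. Without early-in-Cy5 replicate 3 it called 1 member, which was none of the 5, and 229 of all genes. Without hatched-in-Cy5 replicate 2 it called RPL10A, RPS18 and RPL6, and 611 of all genes. With slide as a fixed block, and within the slide of 4 arrays, limma called 0 members, with 13 and 21 at an unadjusted p under 0.05, and 249 and 243 of all genes.

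**Figure D2:**
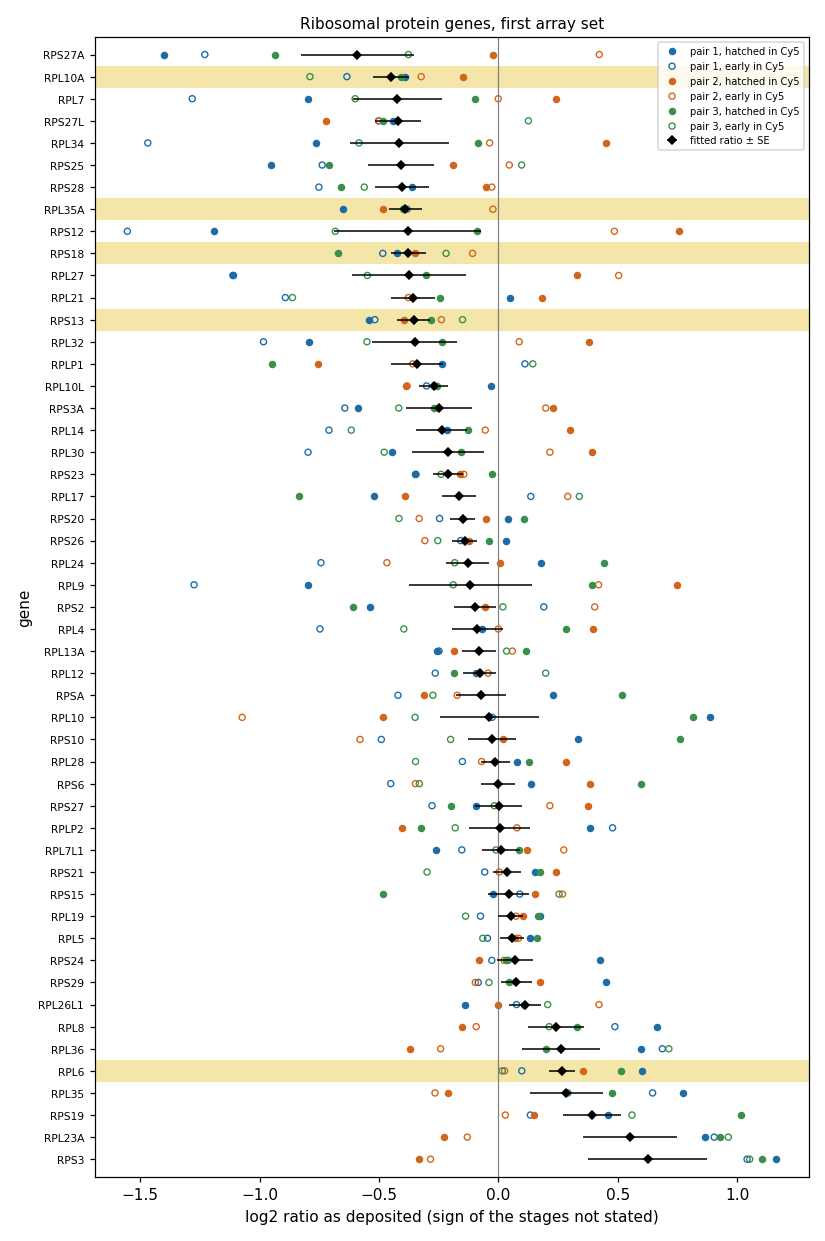
Log2 ratio of the 51 ribosomal protein genes on the 6 arrays of the first design (points, coloured by pair, filled with hatched blastocysts in Cy5 and open with early blastocysts in Cy5) with the fitted ratio ± SE (diamonds). Shaded rows are the 5 genes past an adjusted p of 0.05, and the second pair lies across 0 from the other pairs for genes at both ends.

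The members farthest from 0 on the first design were not the called ones, and their arrays disagreed. RPS3, which lines the entry of the messenger RNA channel, had the highest fitted ratio, 0.62 ± 0.25 (SE, n = 6 arrays, limma adjusted p = 0.258). It had 1.16 and 1.04 in the first pair, -0.33 and -0.28 in the second and 1.11 and 1.05 in the third. Both arrays of the second pair were below 0 and the other 4 lay close together above 1. The layout came from 1 of its 2 probes, with a fitted ratio of 1.08 and a second pair at -1.03 and -0.66. The other probe, with a fitted ratio of 0.17, was above 0 in the second pair, at 0.37 and 0.09, and ran from -0.07 to 0.50 elsewhere.

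RPL23A, at the exit of the tunnel through which the new chain leaves, followed the same order. Its ratios were 0.87 and 0.90, then -0.23 and -0.13, then 0.93 and 0.96, and the fit gave 0.55 ± 0.20 (SE, n = 6 arrays, limma adjusted p = 0.208). Its neighbour at the tunnel exit, RPL35, had 0.77 and 0.65, then -0.21 and -0.27, then 0.47 and 0.29. For both genes the second pair alone was negative.

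At the other end stood RPS27A, made as a fusion with ubiquitin. It had -1.40 and -1.23 in the first pair, -0.02 and 0.42 in the second and -0.94 and -0.38 in the third (fit -0.59 ± 0.24, SE, n = 6 arrays, limma adjusted p = 0.262). RPS12, a protein of the small subunit head, had -1.19 and -1.55, then 0.76 and 0.49, then -0.09 and -0.68. The second pair was its only pair above 0. Its standard error, 0.31, was the highest of the 51 members.

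RPL34 and RPL27, both large subunit proteins, had the same layout. RPL34 ran from -1.47 to 0.45 over the arrays and RPL27 from -1.11 to 0.50. The second pair held the highest values of each. RPL9, another large subunit protein, differed in that the third pair was split around 0, at 0.39 and -0.19, between -0.80 and -1.27 in the first pair and 0.75 and 0.42 in the second.

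Not all uncalled members had a second pair across 0 from the other pairs. RPS19, the gene most often mutated in human Diamond-Blackfan anaemia, was above 0 on all 6 arrays, from 0.03 to 1.02 (fit 0.39 ± 0.12, SE, n = 6 arrays, limma adjusted p = 0.144). RPS28 was below 0 on all 6, from -0.75 to -0.03 (fit -0.40 ± 0.11, SE, n = 6 arrays, limma adjusted p = 0.113). Its second pair, at -0.05 and -0.03, nonetheless lay closest to 0. RPS23, which lies in the decoding centre, was also below 0 on all 6, from -0.35 to -0.03. RPL5, which carries the 5S ribosomal RNA into the large subunit, stayed within -0.07 and 0.16 on every array of this design.

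Counted over the members, the mean of the second pair lay across 0 from the means of both other pairs in 20 of 51 genes on the first design, where 32.5% of all genes did. It did so in 18 of 37 on the second design, where 29.6% of all genes did. All 3 pair means lay on one side of 0 in 19 of 51 members (31.6% of all genes) and 11 of 37 (36.5% of all genes). Across the 51 members, an array of the second pair correlated with an array of another pair with r from -0.54 to 0.18 on the first design, against -0.07 to 0.41 across all genes. Across the 37 members of the second design r was from -0.51 to 0.49, against 0.10 to 0.47 across all genes. These are descriptions across genes, which share arrays, dyes and amplification.

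Without the second pair more members were called on both designs. The first design then had 17 of 51 called, where 9.81% of all genes were. There were 11 negative (5.79% of all genes) and 6 positive (4.02% of all genes), and they included 4 of the 5 called with all arrays. RPS3 then had a fitted ratio of 1.09 (limma adjusted p = 0.00232) and RPL23A 0.92 (adjusted p = 0.00273). RPS27A was at -0.99 (adjusted p = 0.0194). The second had 10 of 37 called, where 17.3% of all genes were, with 5 negative (10.2% of all genes) and 5 positive (7.17% of all genes), all 3 called with every array among them. The pair was set aside after its values were seen, and the labels give no reason to set it aside.

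Of the 37 ribosomal protein genes on the second design, 3 passed an adjusted p of 0.05 in limma, where 10.9% of all genes did. Only 1 was negative, where 5.67% of all genes were, and 2 were positive, where 5.25% were. At an unadjusted p under 0.05 there were 13 (23.7% of all genes), 7 negative (12.8% of all genes) and 6 positive (10.9% of all genes). The members on one side of 0 on all 6 arrays numbered 3 (15.2% of all genes). These were RPS4X, RPL26L1 and RPL7, all below 0, where 8.23% of all genes were, and 0 members were above 0 on all 6, where 6.98% of all genes were.

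RPS4X, a small subunit protein made in humans from a copy on the X chromosome and another on the Y, had the lowest ratio of any member. Its arrays were at -0.65 and -0.83, then -0.78 and -0.76, then -0.39 and -0.47. All 6 were well below 0, and in this mean over probes the second pair lay with the first. The fitted ratio was -0.65 ± 0.08 (SE, n = 6 arrays, limma adjusted p = 0.00347). It is the mean of 14 probes, all with fitted ratios below 0, from -1.07 to -0.10, of which 8 passed an adjusted p of 0.05 as single probes. These probes differed in their pairs. For example, 1 probe had -1.58 and -2.06 in the first pair and -0.38 and -0.48 in the second. Another had -0.04 and -0.29 in the first pair and -1.05 and -1.24 in the second. The platform names these probes RPS4, an older symbol of the same gene.

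RPS3 was positive on this design too. Its ratios were 0.95 and 0.33 in the first pair, 0.62 and -0.05 in the second and 0.73 and 0.31 in the third. The lone value below 0 came from early-in-Cy5 replicate 1, and the hatched-in-Cy5 array was the higher of each pair. The fitted ratio was 0.48 ± 0.08 (SE, n = 6 arrays, limma adjusted p = 0.00925). Its 3 probes ran from -0.18 to 0.84, and 2 of them were called positive as single probes.

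RPS15, a protein of the small subunit head, had the highest ratio of the second design. It had 1.37 and 0.78, then 0.66 and -0.07, then 0.82 and 0.62. Early-in-Cy5 replicate 1 was again the only array below 0. The fitted ratio was 0.70 ± 0.14 (SE, n = 6 arrays, limma adjusted p = 0.0183), from 2 probes at 0.47 and 0.92.

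All 3 called members kept their calls with a random block for pairs, with limma adjusted p of 0.00571 for RPS4X, 0.0184 for RPS3 and 0.0263 for RPS15, where 8.23% of all genes were called. RPS4X and RPS3 were called whichever array was left out. RPS15 lost its call without any single array of the first or of the last pair. With slide as a fixed block limma called 2 of the 37, and within the slide of 4 arrays 4. The count of called members ran from 2 to 7 over the 6 arrays left out in turn, with 7 when early-in-Cy5 replicate 1 was left out and 5 when hatched-in-Cy5 replicate 2, its pair mate, was. Over all genes the count ran from 253 to 578, against 495 of 4530 with all arrays.

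**Figure D3:**
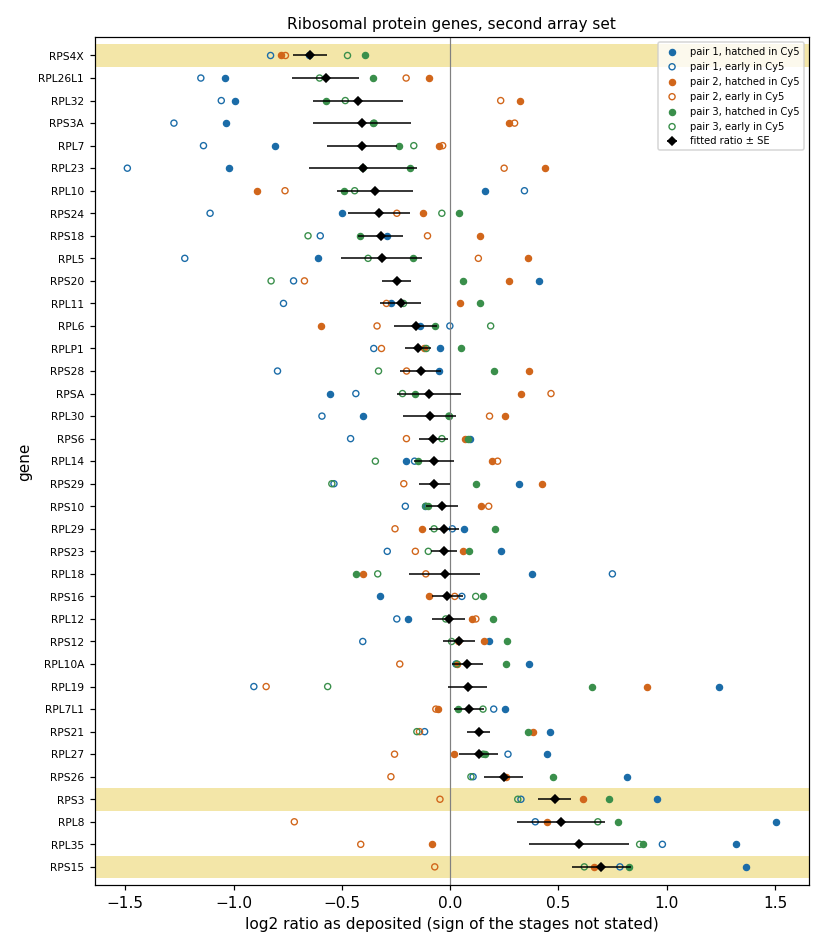
Log2 ratio of the 37 ribosomal protein genes on the 6 arrays of the second design (points, coloured by pair, filled with hatched blastocysts in Cy5 and open with early blastocysts in Cy5) with the fitted ratio ± SE (diamonds). Shaded rows are RPS4X, RPS3 and RPS15, the genes past an adjusted p of 0.05. RPL19 splits by dye orientation with no overlap, as do some other genes, RPS3 among them.

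Several uncalled members of the second design repeated the contrast of pairs. RPL35 had 1.32 and 0.98, then -0.08 and -0.41, then 0.89 and 0.87, and RPL8, which lies by the site where peptide bonds form, had 1.505 and 0.39, then 0.45 and -0.72, then 0.77 and 0.68. Their fitted ratios were 0.60 ± 0.23 for RPL35 (SE, n = 6 arrays, limma adjusted p = 0.171) and 0.51 ± 0.20 for RPL8 (adjusted p = 0.177). The second pair held the lowest value of each. On the negative side, RPL32 had -0.99 and -1.06, then 0.32 and 0.23, then -0.57 and -0.48. RPS3A, near the exit of the messenger RNA channel, had -1.03 and -1.28, then 0.27 and 0.30, then -0.36 and -0.35. Both genes were above 0 in the second pair and nowhere else. RPS26, a small subunit protein at the messenger RNA exit, was at 0.25 ± 0.09 (limma adjusted p = 0.148), with early-in-Cy5 replicate 1 its only array below 0, at -0.27.

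RPL23, on the face that meets the small subunit, spanned the widest range on the negative side, from -1.49 to 0.44, with both values above 0 in the second pair. RPL10, which is added late to the large subunit, broke the layout. It was positive in the first pair, at 0.16 and 0.34, and negative in the second, at -0.89 and -0.76, and in the third, at -0.49 and -0.44.

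Near-identical copies and relatives of some ribosomal protein genes were on the arrays. RPL26L1, a close copy of RPL26, differed between designs. It was below 0 on all 6 arrays of the second, from -1.15 to -0.10, with all 4 probes negative (fit -0.58 ± 0.15, SE, n = 6 arrays, limma adjusted p = 0.0570). On the first its 3 probes ran from -0.31 to 0.53 and the fitted ratio was 0.11 ± 0.07 (adjusted p = 0.462).

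RPL10L, an autosomal copy of RPL10 known in mice for its role in the testis, was at -0.27 ± 0.06 on the first design (SE, n = 6 arrays, limma adjusted p = 0.0583). All 6 of its arrays were below 0, from -0.39 to -0.03. RPL10 itself had -0.04 ± 0.21 there, with arrays from -1.07 to 0.89. RPS27L, a p53 target in humans, was at -0.42 ± 0.10 (adjusted p = 0.0584), while RPS27 was at 0.00 ± 0.10. Neither difference between copies was tested.

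RPL7L1, a more distant relative of RPL7, was close to 0 on both designs, at 0.01 ± 0.08 and 0.09 ± 0.07. RPL7 was at -0.42 ± 0.18 on the first and -0.41 ± 0.16 on the second (SE, n = 6 arrays each, limma adjusted p = 0.308 and 0.181). Probe sequences were not used here, so hybridisation of one gene's RNA to another gene's probe, or to probes that match pseudogenes, was not tested.

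Among the stalk proteins, RPLP1 was at -0.34 ± 0.11 on the first design and -0.15 ± 0.06 on the second (SE, n = 6 arrays each, limma adjusted p = 0.162 and 0.191). Its first-design arrays were at -0.24, -0.76 and -0.95 with hatched blastocysts in Cy5, and at 0.11, -0.36 and 0.14 with early blastocysts in Cy5. The array with hatched blastocysts in Cy5 was the lower of each pair. RPLP2 was at 0.01 ± 0.13 on the first design, where the first pair was above 0, at 0.38 and 0.48, and the third below, at -0.32 and -0.18.

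RPS6, the substrate of the S6 kinases, was at 0.00 ± 0.07 on the first design and -0.08 ± 0.07 on the second. RPSA, also known as a laminin receptor precursor, was at -0.07 ± 0.11 and -0.10 ± 0.15. RPL5 and RPL11, which bind MDM2 when ribosome assembly is disturbed, had -0.32 ± 0.19 for RPL5 and -0.23 ± 0.09 for RPL11 on the second design (SE, n = 6 arrays, limma adjusted p = 0.376 and 0.195). RPL5 was above 0 there in the second pair, at 0.36 and 0.13, and below 0 on the other 4 arrays.

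A pair of genes outside the symbol rule also encode proteins of this kind. FAU, which makes RPS30 fused to a ubiquitin-like protein, was at 0.01 ± 0.06 on the first design and 0.21 ± 0.06 on the second (SE, n = 6 arrays each, limma adjusted p = 0.975 and 0.0905). RPL36AL, a copy of RPL36A, was at -0.31 ± 0.26 and -0.30 ± 0.09 (adjusted p = 0.620 and 0.0832). RPL36AL on the first design showed the contrast of pairs, with 0.76 and 0.49 in the second pair and -0.54 or lower elsewhere.

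The dye term, positive where the deposited ratio is higher with hatched blastocysts in Cy5, leaned one way over the members. It was above 0 in 34 of 51 members on the first design (51.1% of all genes) and in 31 of 37 on the second (50.7% of all genes). Its median was 0.06 and 0.11 over the members and 0.00 over all genes on both. No single member passed an adjusted p of 0.05 for dye in limma on either design, where 0.99% of all genes did on the first and 0% on the second. In size the dye term exceeded the stage ratio in 20 of 51 and 14 of 37 members, and the share of all genes where it did was not computed. The median size of the dye term was 0.13 over the members on both designs, and 0.09 and 0.08 over all genes.

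RPL19 had the largest dye term of the members on the second design, and is named for it after its values were seen. Its ratios were 1.24, 0.91 and 0.65 with hatched blastocysts in Cy5, and -0.91, -0.85 and -0.57 with early blastocysts in Cy5. The orientations did not overlap, and the fitted stage ratio was 0.08 ± 0.09 beside a dye term of 0.85 (SE, n = 6 arrays, limma adjusted p = 0.678 for stage and 0.0570 for dye). This rests on 1 probe, and the 3 probes of RPL19 on the first design gave a dye term of 0.10. Orientations also did not overlap on the second design for other members, among them RPS21, RPS29 and the called RPS3 (dye term 0.29). The share of all genes without overlap was not computed.

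RPS20 had the next largest, 0.49, with 0.41, 0.27 and 0.06 in the hatched-in-Cy5 arrays and -0.72, -0.67 and -0.83 in the early-in-Cy5 arrays. Its stage ratio was -0.25 ± 0.07 (SE, n = 6 arrays, limma adjusted p = 0.0557). The orientations are equal in number, so a dye effect shared by the arrays cancels in the fitted stage ratio.

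Probes of 1 gene often disagreed. Several probes read 22 of the 51 members on the first design and 32 of the 37 on the second. They lay on both sides of 0 in 10 of the 22 and 21 of the 32. RPS24, a small subunit protein, had 3 probes from -0.39 to 0.61 on the first design, the highest called positive as a single probe, and 6 probes all below 0, from -0.69 to -0.13, on the second. RPL6 had 13 probes on the second design, from -0.43 to 0.27, of which 11 were below 0. In contrast to RPL6, the 14 probes of RPS4X all had fitted ratios on one side, although their pairs differed. Probe disagreement is not part of the standard errors given, which are of the gene's mean over probes.

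**Figure D4:**
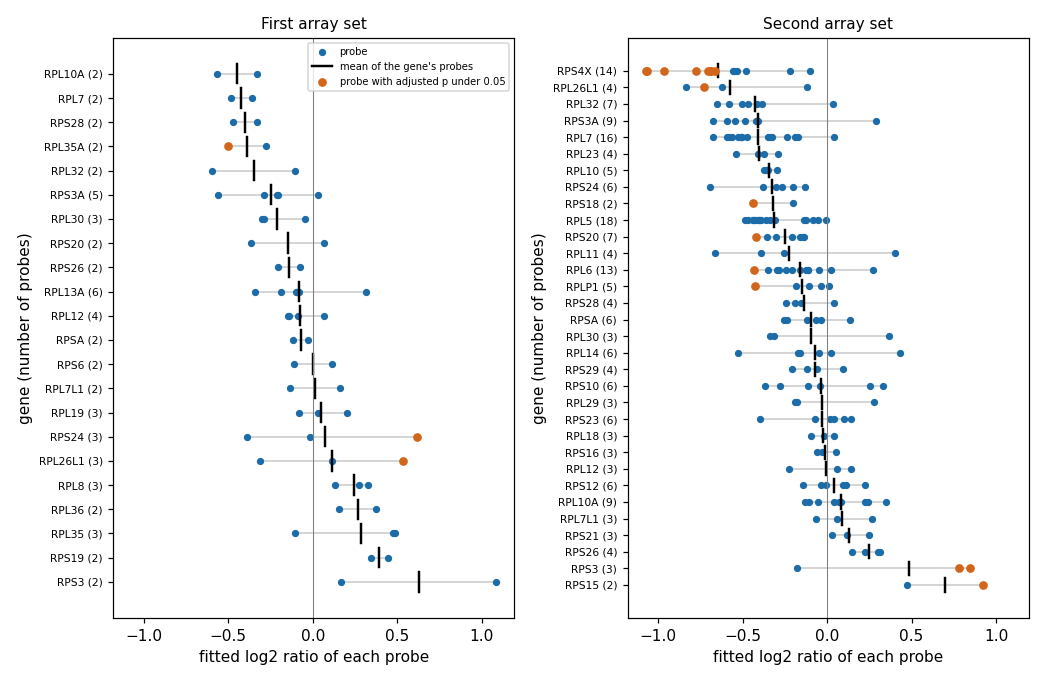
Fitted log2 ratio of each probe (points) of the ribosomal protein genes read by several probes, with the gene's mean (bar) and the number of probes in brackets. Probes past an adjusted p of 0.05 as single features are orange, and 8 of these belong to RPS4X.

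Taken as single features, 3 probes of members were called negative and 2 positive on the first design, where 4.64% of all probes were called. On the other design 13 were negative and 3 positive, where 6.12% of all probes were.

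Of the 31 members on both designs, 15 were below 0 on both, 7 above 0 on both and 9 on opposite sides. The same side on both was thus taken by 71.0% of these members, and by 61.8% of all shared genes. Fitted ratios of the designs correlated across these members with Pearson's r = 0.43 and Spearman's rho = 0.27, beside 0.49 and 0.40 across all 3815 shared genes. This is a description across genes, and whether the designs share RNA samples is not given. No member was called on both. RPS3 had 0.62 ± 0.25 on the first and 0.48 ± 0.08 on the second, and RPS18 -0.38 ± 0.07 and -0.32 ± 0.10 (second design, limma adjusted p = 0.101). RPL35 and RPL8 were above 0 on both, and RPL7, RPL32 and RPS3A below 0 on both.

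Other called members did not have like values on the other design. RPL10A was at -0.45 ± 0.08 on the first and 0.08 ± 0.07 on the second, where its 9 probes ran from -0.13 to 0.35. RPL6 was at 0.27 ± 0.05 and -0.16 ± 0.10. RPS15 was at 0.04 ± 0.09 and 0.70 ± 0.14. The difference between designs was not tested, because each design had its own fit. RPL35A and RPS13 were measured on the first design only, and RPS4X on the second only.

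**Figure D5:**
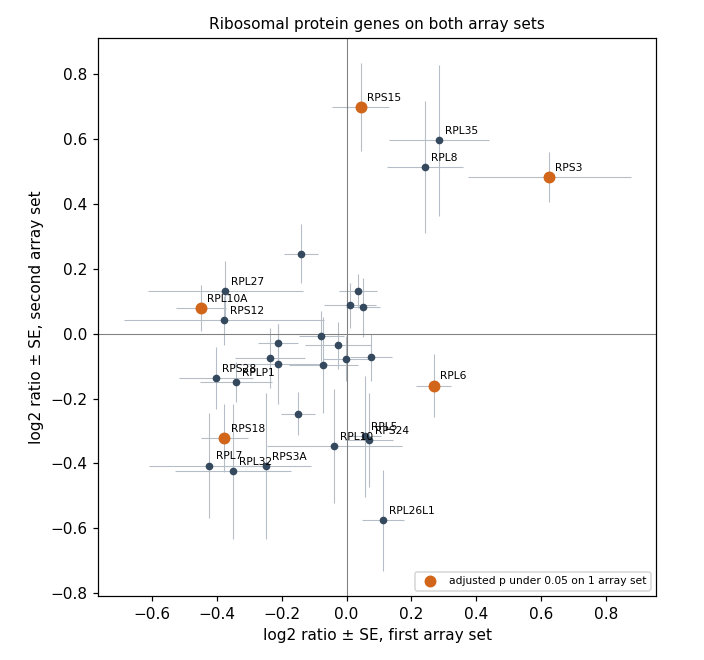
Fitted log2 ratio ± SE of the 31 ribosomal protein genes on both designs, first design on the x axis and second on the y axis. Genes called on 1 design are orange; RPS3 and RPS18 lie on the same side of 0 on both, RPL10A and RPL6 on opposite sides, and RPS15 is near 0 on the first.

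Genes that build and serve the ribosome were counted from lists of known genes. Outside the ribosomal proteins 203 such genes were measured on the first design, and 11 were called negative (2.38% of all genes) and 2 positive (2.37% of all genes), with a median ratio of -0.07. On the second, 57 were measured, and 5 were called negative (5.67% of all genes) and 1 positive (5.25% of all genes), with a median of -0.07. Medians of all genes were 0.00 on both designs.

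Of the ribosome assembly factors on the first design, 48 of 58 were below 0, where 48.8% of all genes were, and the median ratio was -0.11. The 3 called, where 4.74% of all genes were, were NCL at -0.99 ± 0.13 (SE, n = 6 arrays, limma adjusted p = 0.00965), RIOK1 at -0.34 ± 0.07 and NOL6 at 0.65 ± 0.13. NCL is nucleolin, a major nucleolar protein, RIOK1 a kinase of late small subunit assembly, and NOL6 a nucleolar factor. NOP58 on the second design, a core protein of the particles that methylate ribosomal RNA, was at -0.36 ± 0.08, the small subunit processome factor UTP3 at -0.46 ± 0.11 and RIOK2, another late assembly kinase, at -0.42 ± 0.07, and these were the 3 called of 20, where 10.9% of all genes were. There 13 of the 20 were below 0, with a median of -0.13.

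Among initiation factors, 3 of 22 were called on the first design, all negative, where 2.38% of all genes were called negative, and the median was -0.10. On the second design limma called 0 of 9, with 2 at an unadjusted p under 0.05 (23.7% of all genes) and a median of 0.07. The 3 called on the first design were EIF1, which helps select the start codon, at -0.60 ± 0.08 (SE, n = 6 arrays, limma adjusted p = 0.00855), the EIF3 subunit EIF3M at -0.42 ± 0.09 and the cap-binding relative EIF4E2 at -0.35 ± 0.07. Other messenger RNAs with a 5′ pyrimidine run gave EIF3K at 0.34 ± 0.06 as the 1 called of 16 on the first design, where 4.74% of all genes were called. On the second, HNRNPA1, a splicing regulator, at -0.57 ± 0.09 was the 1 called of 6, where 10.9% of all genes were. Their medians were -0.03 with 9 of 16 below 0 on the first design and -0.45 with 5 of 6 below 0 on the second, where 48.8% of all genes were below 0. Of the 21 and 6 genes of TOR signalling to translation, limma called 0 on either design. At an unadjusted p under 0.05 there were 4 on the first (17.1% of all genes) and 2 on the second (23.7% of all genes). Limma also called 0 of the 16 and 3 genes of RNA polymerase I, 0 of the 10 and 3 of elongation and termination and 0 of the 5 and 3 of ribosomal stress. At an unadjusted p under 0.05 these lists held 3, 4 and 2 genes on the first design and 0, 0 and 1 on the second. The shares of all genes were again 17.1% and 23.7%.

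The mitochondrial ribosome, which translates the few proteins encoded in mitochondrial DNA, had 55 genes on the first design. Of these, 6 were called, all negative, where 2.38% of all genes were, and 42 were below 0, where 48.8% of all genes were, with a median of -0.07. MRPL44 was at -0.72 ± 0.08 (SE, n = 6 arrays, limma adjusted p = 0.00622) and MRPL22 at -0.72 ± 0.12. Of 7 measured on the second design, MRPS10 was called negative, at -0.60 ± 0.08, and MRPL24 positive, at 0.49 ± 0.09. On that design 10.9% of all genes were called, and the median of the 7 was 0.06. Without a test of the difference, nothing here separates the cytosolic ribosomal proteins from these lists.

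Markers of embryonic cell types were called on the same arrays. Of all genes, 4.74% were called on the first design (2.37% positive) and 10.9% on the second (5.25% positive). Of the trophectoderm markers, 3 of 8 were called on the first design, all positive: the transcription factor GATA2 at 1.06 ± 0.15 and the keratins KRT8 at 0.76 ± 0.14 and KRT18 at 0.50 ± 0.11. Of 6 on the second, GATA2 and KRT8 were again positive, at 1.30 ± 0.20 and 0.72 ± 0.16, and TFAP2C was negative, at -0.71 ± 0.18 (SE, n = 6 arrays each, limma). The hypoblast list, with 4 genes on each design, had APOA1 at 2.32 ± 0.22 on the first and 1.54 ± 0.24 on the second, with FN1 at 2.61 ± 0.26 and GATA6 at -0.72 ± 0.15 on the second. Inner cell mass markers, 5 and 6 measured, gave SALL4 at -0.34 ± 0.07 on the first and LIN28A at 0.36 ± 0.08 and DPPA5 at 0.89 ± 0.10 on the second.

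Marker lists for cells from the mother or father were nearly all uncalled. AMH, a granulosa cell product, was called positive on the second design, at 0.35 ± 0.08, where 5.25% of all genes were called positive. It was the 1 called of 5 cumulus and granulosa genes there. On the first limma called 0 of 6, with 1 at an unadjusted p under 0.05, where 17.1% of all genes were. Of the oviduct, blood and sperm lists limma called 0 genes, with 0 at an unadjusted p under 0.05, and their medians lay between -0.03 and 0.05. The part of cell type proportions in the ribosomal protein ratios was not tested.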

How the data were processed

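Pig hatched and early blastocysts were compared directly on 2 designs of 2-colour arrays with dye swaps, 6 arrays each. The authors deposited 1 normalised log ratio per probe and array, taken as log2; the sources used here do not give the log base, direction, background correction or normalization. Per the labels' protocols, RNA was amplified before labelling. Array replicate numbers follow accession order and pair nothing.

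Probes were named from the platform annotation, with symbols and accessions updated through RefSeq (Sscrofa11.1) tables. On the first design 18121 probes had 1 symbol and 25673 none, and 2658 of 4740 accessions matched. On the second design 10290 had 1 symbol and 34930 none, and 6055 of 10193 accessions matched. Probes of 1 symbol were averaged per array. FLT3LG, listed as a synonym of RPL13A, was kept as its own gene. No gene name came from a probe with several symbols.

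Each design had its own limma 3.58.1 fit in R 4.3.3 (lmFit, eBayes; terms for stage and for dye), and p-values were adjusted over all genes by Benjamini and Hochberg, with a threshold of 0.05. The method was tested on simulated data. Members, gene lists and tests were chosen with earlier results of these data known. The members named by rule are those past the threshold, the 5 highest and 5 lowest ratios of each design, RPSA, the stalk proteins and the copies with their parent genes. RPL5, RPL9, RPL11, RPL19, RPL23, RPL27, RPS6, RPS12, RPS20, RPS21, RPS23, RPS24, RPS28 and RPS29 were chosen after their values were seen. Precision is limited by the number of arrays. Alternatives were the dye term, symbols as given, prior, slide, pairs, probes and leaving out arrays.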

Additional observations from a re-analysis of the deposited data

Results flagged for a closer look

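Of 43 named member results tested for a single array far from the other 5, 2 stood out; chance alone marks about 1 group in 20. RPL10L on the first design was at -0.0313 on hatched-in-Cy5 replicate 1, while its other arrays lay between -0.39 and -0.26. RPS27L on the first design was at 0.126 on early-in-Cy5 replicate 3, its only array above 0, while its other arrays lay between -0.72 and -0.44. Each of these genes is read by 1 probe there.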

How the results depend on the processing

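The number of ribosomal protein genes called on the first design, 5 of 51, depended on most choices. Limma called 0 with a trended and robust prior, with slide as a fixed block, with pairs averaged and within the slide of 4 arrays, with 17, 13, 12 and 21 at an unadjusted p under 0.05. It called 1 with pairs as a random block (consensus correlation 0.42), 18 with slide as a random block (consensus correlation -0.19) and 17 without the second pair, an alternative chosen after seeing the data. Leaving out each array in turn gave 0 to 5. On the second design, 3 of 37 became 0 with pairs averaged (5 at an unadjusted p under 0.05), 10 with slide as a random block (correlation -0.17), 10 without the second pair and 2 to 7 with an array left out. With each probe as its own feature, 16 of the 196 member probes there were called, 8 of them of RPS4X. Members' medians stayed negative under every alternative run, from -0.14 to -0.08 on the first design and from -0.19 to -0.05 on the second.

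For all genes the first design's 565 calls became 1777 with slide as a random block, 1169 without the second pair, 249 with slide as a fixed block, 243 within the slide of 4 arrays and 0 with pairs averaged or a trended and robust prior. The second design's 495 became 1036, 785, 289 and 210 in the first 4 of these settings, and 4 with pairs averaged. Leaving out each array in turn gave 197 to 611 calls over all genes on the first design and 253 to 578 on the second. Over 43 named member results, 817 comparisons were made, of which 58 lost a call, 38 gained one and 22 others were marked as moved. No member called with all arrays changed sign. Some uncalled ratios did without the second pair: on the first design RPL10 went from -0.04 to 0.33 and RPSA from -0.07 to 0.01. The first design's 5 calls had their highest adjusted p with pairs averaged, between 0.195 and 0.268. RPS3 and RPS4X on the second design lost their calls with pairs averaged alone (adjusted p = 0.105 and 0.0796), and RPS15 in 6 settings.

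No paired analysis by replicate number was possible because the labels number no replicates across groups; the pairs as a replicate block come from residuals. A planned description of 5′ pyrimidine runs was not run, since no promoter sequences were used here. Where an alternative changed a count, the cause was not tested, apart from having fewer arrays where arrays were left out.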
